A study of Mus musculus with 6 samples.

Results

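Imprinted genes are expressed from 1 parental copy, and 49 of them, chosen by name, were followed in the adult brain of mice without Bahd1. The list spans 12 imprinted regions and 6 single genes, and each name matched 1 row of the 53801 genes in the table of read counts. Of these, 47 had the minimum sum of 10 counts over the 6 samples and were tested among 23975 genes. Phlda2, which limits growth of the placenta, and Snurf, a short reading frame upstream of Snrpn, had no count in any sample.

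RNA-seq was made from 1 frozen brain hemisphere of each of 3 Bahd1-KO mice (Bahd1-/-) and 3 Bahd1-WT mice (Bahd1+/+), all of strain C57BL/6, adult and labelled as about 70 weeks old. BAHD1 is a chromatin protein that takes part in forming repressive heterochromatin, and the comparison addresses which brain genes change without it. The KO is constitutive, from crosses of heterozygous mice, so each homozygous animal lacked Bahd1 from conception and only survivors to this age were measured. Polyadenylated RNA of a whole hemisphere mixes all regions and cell types, so fewer cells of a type and less RNA per cell cannot be told apart.

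Imprinted genes carry marks set in the egg or the sperm, mostly DNA methylation of a control region, which keep 1 parental copy active and the other silent. They lie in clusters where a control region governs genes of both parental origins, often with a long noncoding RNA, and many act on fetal growth, the placenta and the brain. Igf2, an insulin-like growth factor made from the paternal copy, and H19, a noncoding RNA made from the maternal copy, share enhancers and are the classical pair. In the brain Igf2 comes mainly from the choroid plexus and the meninges and can escape imprinting there. Both parental genomes of these inbred mice are alike, so the counts sum over the alleles, and loss of imprinting could not be seen except as a change in level.

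Total counts were 42297150 to 93557948 per sample. Levels are given as CPM, counts scaled to a common library size with the TMM factors of edgeR, in the order WT1, WT2, WT3 and then KO1, KO2, KO3. A level of 3 counts, taken as the floor, is 0.0315 to 0.0690 CPM. Bahd1 itself had 1383, 844 and 1099 counts in WT and 0, 14 and 1 in KO, and fell by 7.67 on the log2 scale (SE 0.64, adjusted p = 0.0135 by edgeR's quasi-likelihood test), which matches the labels. A differentially expressed gene (DEG) had an adjusted p under 0.05, from edgeR over all genes tested, and a difference of at least 2-fold. The 8 neuronal markers summed to 6845 to 8339 CPM over the 6 samples, most of it from Snap25 and Syt1, and had both signs, from Tubb3 at 2.06 to Gad2 at -0.53 on the log2 scale. The 5 lung markers summed to 103 CPM in WT1 and 24.6 CPM in WT2 beside 0.44 to 2.20 CPM in the other libraries, and 6 pituitary markers to 17.2 CPM in WT1 and 38.6 CPM in KO3 beside 0.03 to 0.95 CPM. The 10 hypothalamus markers summed to 40.5 to 65.1 CPM in WT and 38.1 to 59.1 CPM in KO, and 8 had a positive log2 difference (median of the 10, 1.33, and 0.04 with an offset for GC content and length), from Oxt at 4.75, with at most 0.066 CPM in WT and 2.49 CPM in KO2, to Sim1 at -0.82. By edgeR none was a DEG, 3 (30%, beside 19.9% of all genes) were higher and 2 (20%, beside 12.0%) lower at an unadjusted p under 0.05, and DESeq2 called 2 (20%, beside 10.5%). The part of these markers in the levels of imprinted genes was not tested.

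No imprinted gene was a DEG, 0 of 47, beside 0.00834% of all genes tested, which is 2 genes with Bahd1 among them. At an unadjusted p under 0.05, 7 of the 47 (14.9%) were higher in KO, beside 19.9% of all genes, and 6 (12.8%) were lower, beside 12.0%. The 3 KO values lay entirely above the 3 WT values in 7 genes (14.9%), beside 20.6% of all genes, and entirely below in 13 (27.7%), beside 19.3%. The median log2 difference of the 47 genes was -0.09, beside -0.06 for all genes.

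**Figure D1:**
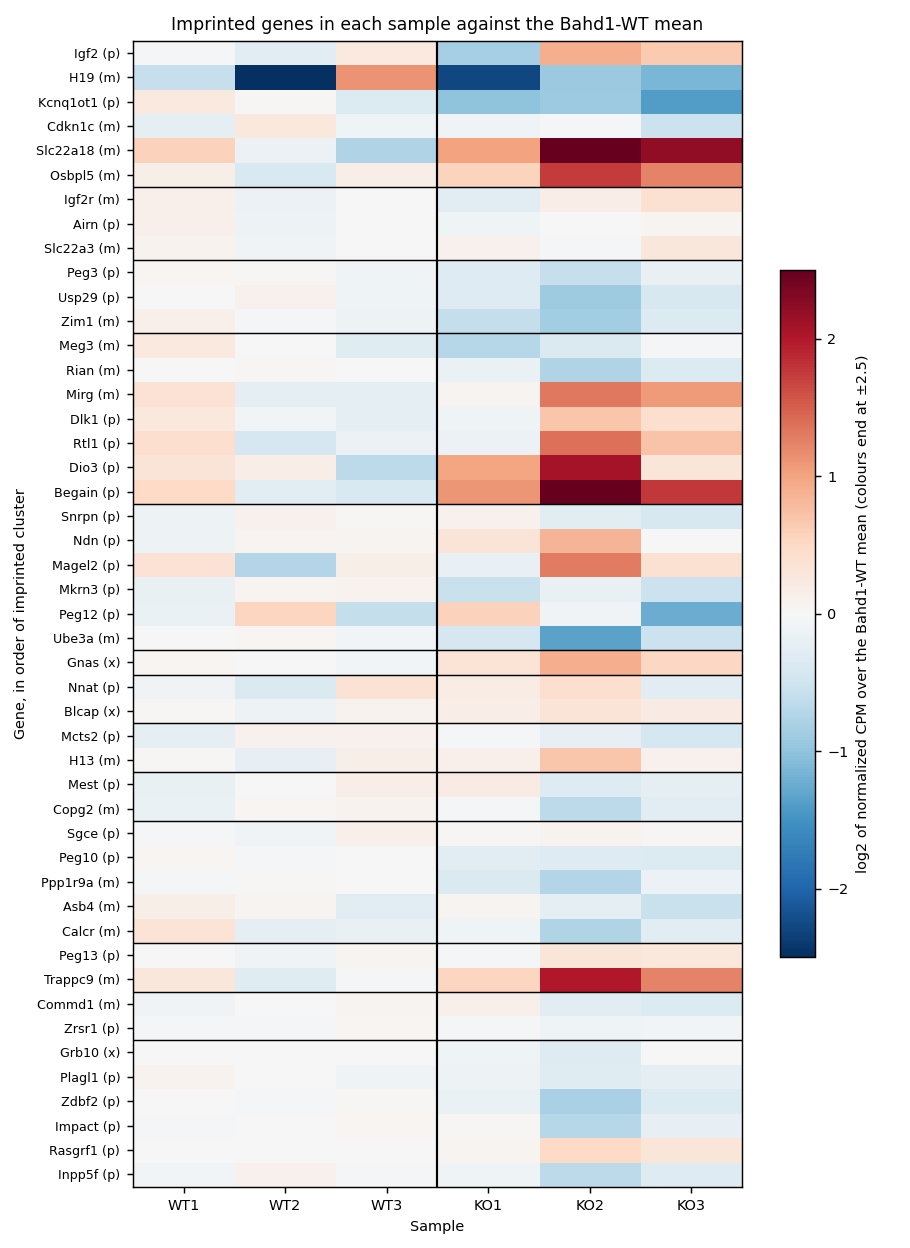
Level of each of the 47 tested genes (rows, in order of cluster, lines between clusters) in each of the 6 hemispheres (columns), as log2 of normalized CPM over the mean of the 3 WT samples; p, m and x mark genes known to be expressed from the paternal copy, the maternal copy, or differently by tissue or transcript. Igf2r is marked m although neurons express both copies. Rows are pale in WT apart from H19 and a few other genes, and the strongest colours stand in KO2, which held the highest or lowest level of the 6 samples in 32 of the 47 genes.

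DESeq2 with shrunken fold changes, the tool of the study, called 6 of the 47 genes (12.8%), beside 10.5% of all genes. Begain, Slc22a18, Osbpl5, Trappc9 and Dio3 were called higher and Kcnq1ot1 lower. These are the 6 genes that had an unadjusted p under 0.05 and a difference of at least 2-fold in edgeR as well, 5 higher beside 12.0% of all genes and 1 lower beside 3.07%. Without KO1, the library of least depth, edgeR called 7 of the 47 genes (14.9%), beside 16.8% of all genes, with Mirg and Rtl1 in place of Dio3. Without KO2 it called 0, and the share of all genes called in that fit is not given here. At an unadjusted p under 0.05, 5 were then higher (10.6%, beside 15.5% of all genes) and 5 lower (10.6%, beside 9.35%). Begain stood there at 1.48, Slc22a18 at 1.72, Osbpl5 at 0.94, Trappc9 at 0.93, Dio3 at 0.67 and Kcnq1ot1 at -1.19 on the log2 scale. With a block on replicate number, 0 were DEGs, beside 7 of the 23975 genes tested. In that fit 7 (14.9%, beside 15.1% of all genes) were higher and 2 (4.26%, beside 6.68%) lower at an unadjusted p under 0.05.

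Starts of 6 members are shown as the 250 bases upstream, read from RefSeq on build GRCm38.p6. They are Igf2, for which the list is named, Begain and Slc22a18, which had the highest fold differences, Kcnq1ot1 and Ube3a, which were lower in all 3 KO samples, and Mest. Capitals mark CpG, the dinucleotide that is methylated, in all but Mest. In Mest they mark TGCCGC, searched on both strands, the core of the motif of ZFP57, a zinc finger protein that protects imprints. Of the starts that RefSeq lists for Igf2 and for Begain, the one shown has the most CpG. The windows are chr7:142658805-142659054 on the minus strand for Igf2, chr12:109068218-109068467 (minus) for Begain, chr7:143473539-143473788 (plus) for Slc22a18, chr7:143296548-143296797 (minus) for Kcnq1ot1, chr7:59228500-59228749 (plus) for Ube3a and chr6:30737800-30738049 (plus) for Mest.
Igf2: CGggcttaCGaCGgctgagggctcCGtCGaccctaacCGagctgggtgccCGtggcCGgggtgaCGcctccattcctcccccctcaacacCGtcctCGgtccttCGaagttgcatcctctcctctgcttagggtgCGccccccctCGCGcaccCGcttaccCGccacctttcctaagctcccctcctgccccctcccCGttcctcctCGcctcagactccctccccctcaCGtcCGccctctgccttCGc
Begain: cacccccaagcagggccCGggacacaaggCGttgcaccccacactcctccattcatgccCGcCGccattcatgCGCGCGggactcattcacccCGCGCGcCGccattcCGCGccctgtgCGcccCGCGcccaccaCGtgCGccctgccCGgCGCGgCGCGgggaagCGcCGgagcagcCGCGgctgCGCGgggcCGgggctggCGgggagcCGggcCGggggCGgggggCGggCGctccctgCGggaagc
Slc22a18: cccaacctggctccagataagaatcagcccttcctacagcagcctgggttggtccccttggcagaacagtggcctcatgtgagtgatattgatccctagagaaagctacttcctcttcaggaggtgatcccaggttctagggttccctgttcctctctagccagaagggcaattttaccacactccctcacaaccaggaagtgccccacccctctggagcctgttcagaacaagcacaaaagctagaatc
Kcnq1ot1: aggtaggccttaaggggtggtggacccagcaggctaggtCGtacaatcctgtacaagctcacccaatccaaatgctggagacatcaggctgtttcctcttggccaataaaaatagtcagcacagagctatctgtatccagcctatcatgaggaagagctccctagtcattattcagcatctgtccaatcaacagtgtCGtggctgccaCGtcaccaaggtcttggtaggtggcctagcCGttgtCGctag
Ube3a: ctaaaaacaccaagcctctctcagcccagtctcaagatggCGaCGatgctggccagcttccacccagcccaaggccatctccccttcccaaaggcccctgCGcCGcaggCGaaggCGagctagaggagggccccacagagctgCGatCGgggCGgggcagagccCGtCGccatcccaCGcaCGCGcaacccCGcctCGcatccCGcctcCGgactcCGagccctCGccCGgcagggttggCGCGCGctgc
Mest: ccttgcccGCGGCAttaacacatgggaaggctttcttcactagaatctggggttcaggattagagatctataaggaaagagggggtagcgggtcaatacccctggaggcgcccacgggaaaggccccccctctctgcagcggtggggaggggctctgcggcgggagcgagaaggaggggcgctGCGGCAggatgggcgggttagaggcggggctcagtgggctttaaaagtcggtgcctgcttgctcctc

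The Begain window shown held 37 CpG, with 22 to 34 in its other 4 windows, and the only Slc22a18 window 0, beside fold differences of 4.58 and 4.33. CpG number was 22 in the Igf2 window, 24 in the Ube3a window and 5 in the Kcnq1ot1 window. RefSeq starts were matched for 41 of the 49 genes, in 65 windows. No entry was matched for Rtl1, Sgce, Peg10, Trappc9, Impact, H19, Cdkn1c and Peg13. Over the 65 windows the median was 12 CpG at 58% GC, beside 6 CpG at 52.4% over all 32851 windows. TGCCGC stood in 10 of the 65 windows (15.4%), beside 8.68% of all, in 9 genes, which were Zdbf2, Mcts2, Calcr, Mest, Copg2, Zim1, Osbpl5, Plagl1 and Meg3. Of these 9 genes Osbpl5 alone was among the 6 genes that DESeq2 called, of which Trappc9 had no window to search. A match of letters does not show binding.

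Igf2 (ENSMUSG00000048583, GRCm38 chr7:142650766-142666816, minus strand) was scarce in the adult hemisphere. Its level was 1.19, 1.02 and 1.45 CPM in WT and 0.69, 2.30 and 1.92 CPM in KO, from 30 to 219 counts. KO1 was the lowest of the 6 samples and KO2 and KO3 the highest pair, so the groups overlapped. The log2 difference was 0.44 (SE 0.40, adjusted p = 0.467 by edgeR), and it was 0.82 with an adjusted p of 0.0448 without KO1 and 0.12 without KO2. In the GENCODE M21 annotation, 3596 bases or 62.8% of its exon length lie on the same strand as exons of the gene AC013548.1 (Gm49394), which itself had 0 to 1 count a sample. The stated counting options leave a read that falls on both genes uncounted, so the Igf2 level here rests on its remaining exons, and it was given no rank among the other genes.

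H19 (ENSMUSG00000000031, chr7:142575529-142578143), the noncoding partner of Igf2, varied widely between WT samples, at 3.21 ± 3.40 CPM (SD, n = 3). Single values were 2.15, 0.47 and 7.01 CPM in WT and 0.67, 1.68 and 1.45 CPM in KO. The WT samples lay on both sides of all 3 KO samples, and the log2 difference of -1.33 (SE 0.78, adjusted p = 0.261) became -0.05 without WT3. The same WT3 library was the highest for 4 markers of dividing cells summed, 11.7 CPM beside 2.06 to 5.15 in the other 5 libraries, and for Igf2bp3, an RNA-binding protein of fetal tissue, at 0.995 CPM beside at most 0.077. Their part in the H19 level was not tested.

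Cells known as the source of Igf2 in the brain were read through their markers. The 10 markers of the choroid plexus, all tested, summed to 306 to 404 CPM in WT and 484 to 1110 CPM in KO, without overlap. Ttr, the thyroid hormone carrier that made up most of that sum, stood at 309, 285 and 213 CPM in WT and 402, 1018 and 554 CPM in KO, a log2 difference of 1.29 (adjusted p = 0.0634), whereas 6 of the 10 markers had a negative difference, among them Kl at -0.40 and Cldn2 at -0.40. The 10 markers of the leptomeninges summed to 158 to 162 CPM in WT and 133 to 155 CPM in KO, although 7 of the 10 had a positive log2 difference (median 0.16), and Ogn, Lum and Dcn, at -0.76, -0.61 and -0.42, were the 3 with a negative one. By edgeR none of these 20 markers was a DEG, 2 (10%, beside 19.9% of all genes) were higher and 3 (15%, beside 12.0%) lower at an unadjusted p under 0.05, and DESeq2 called 1 (5%, beside 10.5%). With the offset for GC content and length, 2 of the 10 choroid plexus markers (median -0.20) and 4 of the 10 leptomeninges markers (median -0.04) were positive. Of the 20, 1 was then higher, beside 9.9% of all genes, and 5 lower, beside 11.5%, at an unadjusted p under 0.05. The part of these 20 markers in the Igf2 level was not tested.

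Near them on chromosome 7, Kcnq1ot1 is a paternally expressed antisense RNA that silences its maternally expressed neighbours Cdkn1c, Phlda2, Slc22a18 and Osbpl5 in cis. Kcnq1ot1 (chr7:143203458-143296549) stood at 23.5, 20.2 and 15.7 CPM in WT and 9.84, 10.6 and 7.55 CPM in KO. All 3 KO samples lay below all 3 WT samples, with a log2 difference of -1.09 (SE 0.23, adjusted p = 0.0634). Slc22a18, a transporter, was close to the floor in WT at 0.24, 0.15 and 0.095 CPM and stood at 0.32, 1.03 and 0.74 CPM in KO, a log2 difference of 2.11 (SE 0.50, adjusted p = 0.0634). Osbpl5, an oxysterol-binding protein, stood at 10.1, 7.0 and 10.2 CPM in WT and 13.3, 30.4 and 21.5 CPM in KO, a log2 difference of 1.26 (SE 0.31, adjusted p = 0.0634). Both genes were higher in every KO sample than in any WT sample, and both missed the threshold. Cdkn1c, the cell cycle inhibitor p57, lay between 8.69 and 15.2 CPM with overlapping groups and a log2 difference of -0.20. It shares 30.6% of its exon length with Gm44732 on the opposite strand, which had 0 to 9 counts.

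**Figure D2:**
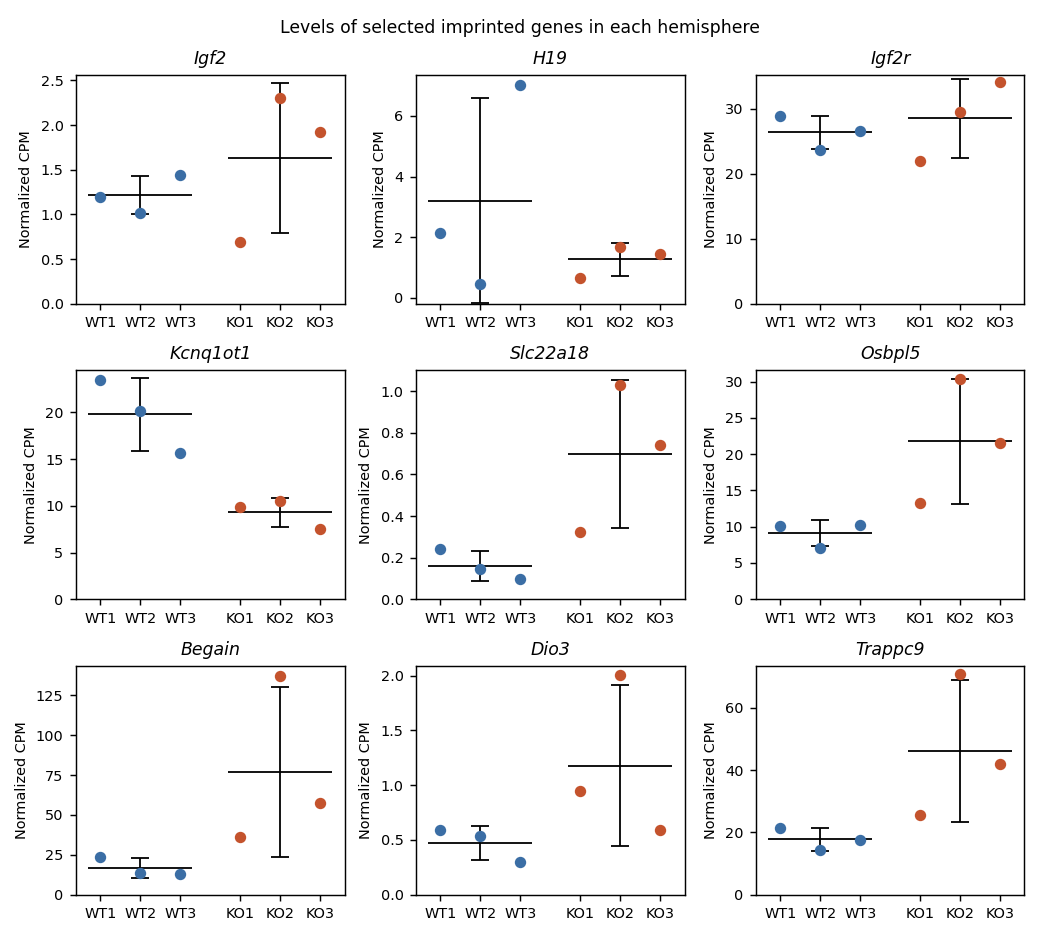
Normalized CPM (y axis, linear, each panel with its own scale) of 9 imprinted genes in 3 WT (blue) and 3 KO (orange) hemispheres; horizontal lines are group means and bars are SD (n = 3), drawn below 0 for H19 because its SD exceeds its mean. Groups are apart in Kcnq1ot1, Slc22a18, Osbpl5, Begain and Trappc9 and overlap in Igf2, H19, Igf2r and Dio3, and KO2 is the highest sample of the 6 in Igf2, Slc22a18, Osbpl5, Begain, Dio3 and Trappc9.

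The receptor that clears IGF2 showed no such separation. Igf2r (chr17:12682406-12769664), maternally expressed outside the brain and from both copies in neurons, stood at 28.8, 23.7 and 26.5 CPM in WT and 22, 29.5 and 34.1 CPM in KO. KO held both the lowest and the 2 highest values, and the log2 difference was 0.11 (SE 0.20, adjusted p = 0.714). Airn, its paternally expressed antisense RNA, and Slc22a3, an organic cation transporter, differed by -0.01 and 0.13, with levels of 2.90 to 3.49 and 2.35 to 3.04 CPM over the 6 samples. The whole cluster thus stayed within 0.13 of 0 on the log2 scale.

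In the Peg3 cluster all 3 genes were lower in every KO sample than in any WT sample. Peg3, a zinc finger protein with a role in maternal behaviour, stood at 576, 567 and 525 CPM in WT and 442, 371 and 488 CPM in KO, a log2 difference of -0.36 (SE 0.16, adjusted p = 0.156). Usp29, a ubiquitin protease started from the same stretch on the other strand, and Zim1, a zinc finger protein of the maternal copy, differed by -0.52 and -0.58 (adjusted p = 0.101 for Usp29). Members of both parental origins thus had the same sign here.

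Genes of the Dlk1-Dio3 cluster on chromosome 12 had both signs. The maternally expressed RNAs Meg3 and Rian, which hosts snoRNAs, are among the most abundant members. Meg3 stood at 1671, 1413 and 1143 CPM in WT and 863, 1100 and 1369 CPM in KO, with overlapping groups and a log2 difference of -0.34 (SE 0.22, adjusted p = 0.291), and Rian differed by -0.40 with all KO samples below WT. Mirg, a host of microRNAs transcribed in the same direction, differed by 0.91 (adjusted p = 0.105), with KO1 inside the WT range. Among the paternally expressed genes, Begain (chr12:109032187-109068217), of the postsynaptic density, stood at 23.7, 13.9 and 12.8 CPM in WT and 36.0, 137 and 57.6 CPM in KO. Every KO sample exceeded every WT sample, KO2 by the most, and the log2 difference of 2.19 (SE 0.48, adjusted p = 0.0634), or 4.58-fold, was the highest of the 47 genes. Dio3, the deiodinase that inactivates thyroid hormone, stood at 0.59, 0.53 and 0.30 CPM in WT and 0.94, 2.01 and 0.59 CPM in KO, a log2 difference of 1.33 (SE 0.47, adjusted p = 0.103), with KO3 inside the WT range. Dlk1, a Delta-like protein, and Rtl1, derived from a retrotransposon, differed by 0.37 and 0.78 with overlapping groups.

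The Snrpn-Ube3a region, whose human counterpart is altered in Prader-Willi and Angelman syndromes, holds the highest level of the list. Snrpn, a splicing factor of neurons, reached 328 ± 27 RPKM in WT (SD, n = 3), first of the 47 genes, although 27.3% of its exon length is shared with Gm38393 on the same strand. Its CPM values were 644, 758 and 721 in WT and 759, 584 and 538 in KO, with overlapping groups and a log2 difference of -0.17 (SE 0.17, adjusted p = 0.504). Ube3a (chr7:59228750-59311536), the ubiquitin ligase that neurons make from the maternal copy, stood at 284, 293 and 271 CPM in WT and 211, 113 and 196 CPM in KO, a log2 difference of -0.71 (adjusted p = 0.0866) with all KO samples below WT. On the opposite strand it shares 8.74% of its exon length with its antisense RNA Snhg14, 9.82% with Gm44560 and 8.71% with 9330162G02Rik. Necdin, encoded by Ndn, and Magel2, another MAGE protein, differed by 0.43 and 0.64, and Mkrn3 and Peg12 by -0.40 and -0.09, with all KO samples of Mkrn3 below WT. None of the 6 tested genes passed, and the paternally expressed members had both signs. Snurf shares all of its 216 exon bases with Snrpn and with Gm38393, so its counts of 0 say nothing of its level.

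Gnas, which encodes the stimulatory G protein alpha subunit and overlapping products of either parental copy, stood at 833, 802 and 769 CPM in WT and 1020, 1509 and 1154 CPM in KO. The groups did not overlap, and the log2 difference was 0.62 (SE 0.18, adjusted p = 0.0698). Nnat, a proteolipid of the endoplasmic reticulum in neurons, stood at 201, 168 and 276 CPM in WT and 244, 288 and 177 CPM in KO, a log2 difference of 0.14 (SE 0.24, adjusted p = 0.713). Its host gene Blcap differed by 0.23 and was higher in every KO sample than in WT, by a small margin. Mcts2, a retrogene inside H13, stood at 7.24, 9.23 and 9.15 CPM in WT and 8.27, 7.39 and 6.30 CPM in KO, a log2 difference of -0.22 (SE 0.21, adjusted p = 0.476). H13, a signal peptide peptidase, differed by 0.34.

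Trappc9 (chr15:72589620-73061204), a subunit of a vesicle tethering complex that is biased to the maternal copy in brain, stood at 21.5, 14.3 and 17.5 CPM in WT and 25.7, 70.8 and 41.9 CPM in KO. Each KO sample exceeded each WT sample, with a log2 difference of 1.38 (SE 0.35, adjusted p = 0.0634). Peg13, the noncoding RNA made from the paternal copy within an intron of Trappc9, stood at 397, 370 and 412 CPM in WT and 379, 485 and 473 CPM in KO, a log2 difference of 0.18 (SE 0.16, adjusted p = 0.435), and its groups overlapped. The host gene and the RNA inside it thus had unlike values in the same samples.

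Remaining pairs and single genes lay within 0.41 of 0 on the log2 scale. Mest, a hydrolase, stood at 25.9, 29.7 and 32.9 CPM in WT and 34.1, 23.5 and 25.3 CPM in KO, a log2 difference of -0.09 (SE 0.20, adjusted p = 0.762). Sgce, epsilon-sarcoglycan, stood at 32.1, 30.8 and 35.9 CPM in WT and 33.5, 35.1 and 33.6 CPM in KO, a log2 difference of 0.05 (SE 0.15, adjusted p = 0.844). Commd1, involved in copper handling, stood at 12.0, 12.8 and 13.3 CPM in WT and 13.8, 10.6 and 9.97 CPM in KO, a log2 difference of -0.15 (SE 0.20, adjusted p = 0.616). Grb10, an adaptor that limits insulin and IGF signalling and is paternally expressed in neurons, stood at 81.2, 80.8 and 82.3 CPM in WT and 75.9, 65.5 and 81.5 CPM in KO, a log2 difference of -0.13 (SE 0.15, adjusted p = 0.553). In all 4 genes the groups overlapped.

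The other 11 of these genes were Copg2, a coatomer subunit, at -0.31, Peg10, derived from a retrotransposon, at -0.31, Ppp1r9a, the actin-binding neurabin, at -0.39, Asb4 at -0.22, the calcitonin receptor gene Calcr at -0.36, the splicing factor Zrsr1 at -0.07, the zinc finger genes Plagl1 at -0.22 and Zdbf2 at -0.41, Impact, an inhibitor of GCN2, at -0.26, Rasgrf1, a Ras exchange factor, at 0.31 and the phosphatase gene Inpp5f at -0.34. KO lay wholly below WT in Peg10, Ppp1r9a, Zrsr1, Plagl1, Zdbf2 and Inpp5f and wholly above in Rasgrf1, with adjusted p-values from 0.153 to 0.730. Mest and Copg2 share 912 exon bases on opposite strands, and Commd1 and Zrsr1 share 412, beside the antisense stretches of Ube3a and Cdkn1c given above. The extract protocol in the labels and the methods differ on whether the kit kept strand, so reads from these stretches may have been counted for either partner or for neither.

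**Figure D3:**
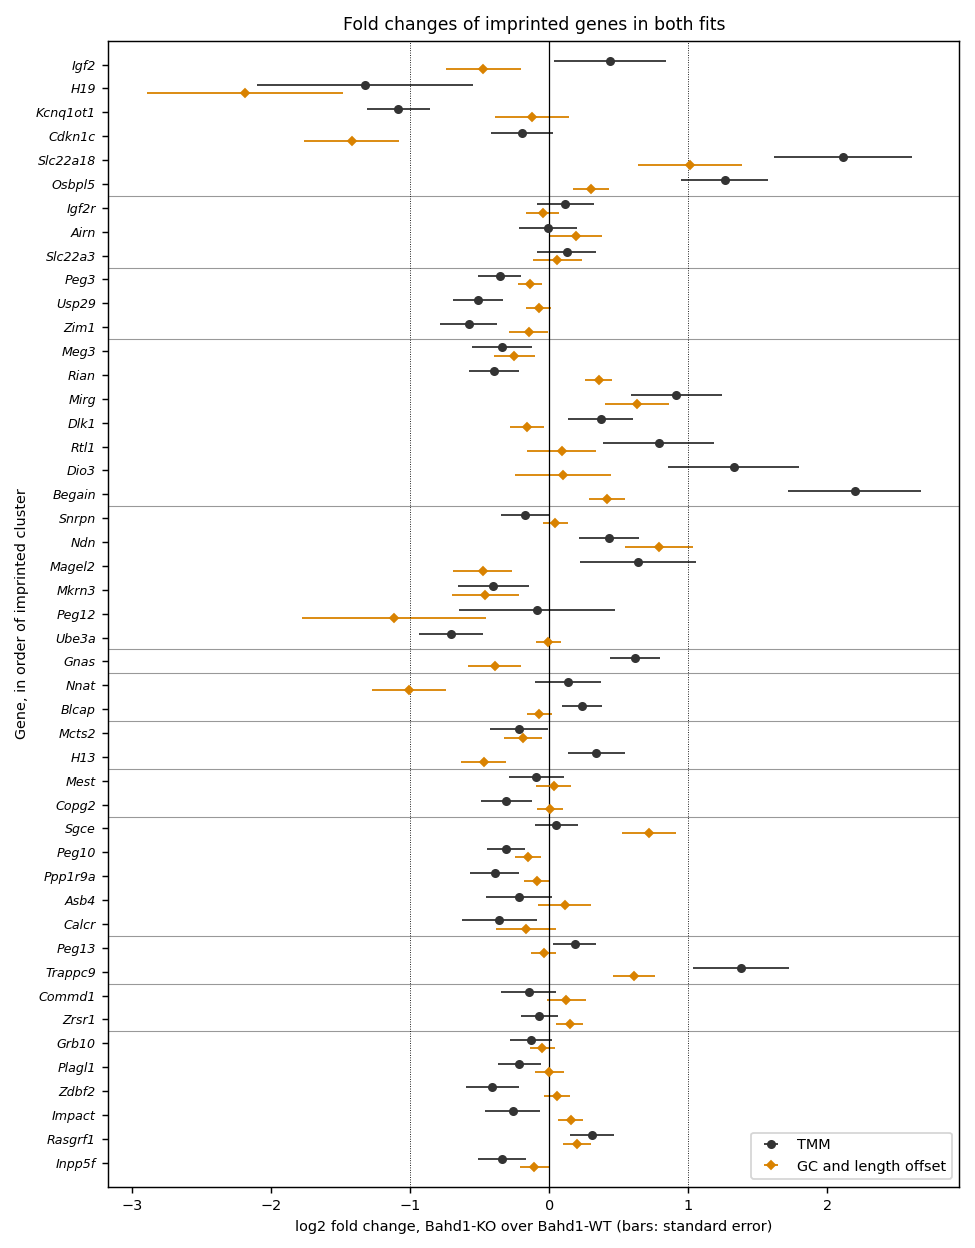
Log2 difference between KO and WT (x axis; bars are standard errors) of the 47 tested genes in order of cluster, from the fit on TMM-normalized counts (black circles) and with an offset for GC content and length (orange diamonds); dotted lines mark 2-fold. Begain, Slc22a18, Trappc9, Dio3, Osbpl5, Kcnq1ot1 and H19 lie past 2-fold in the first fit, and Slc22a18, H19, Cdkn1c, Nnat and Peg12 in the second, none of them a DEG.

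Genes of either parental origin had both signs. The 26 tested genes listed as paternal had a median log2 difference of -0.08, with 11 above 0 (42.3%) and 15 below. The 18 listed as maternal had a median of -0.21, with 7 above (38.9%) and 11 below. Of all genes, 46.6% were above 0 and 53.4% below. The lists go by known origin, which need not hold in brain, and Igf2r, from both copies in neurons, counts as maternal. Sample by sample, the median deviation of the paternal genes from their WT mean was -0.01, 0.004 and 0.02 in WT and -0.08, -0.10 and -0.19 in KO. For the maternal genes it was 0.11, -0.05 and -0.02 in WT and -0.07, -0.25 and -0.21 in KO. The 7 noncoding RNAs ranged from H19 at -1.33 to Mirg at 0.91, with a median of -0.34.

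The sign of the difference went with the GC content of the transcript. Of the 21 members above 50% GC, 18 (85.7%) had a positive log2 difference, with a median of 0.37. Of the 26 at or below 50%, 24 (92.3%) had a negative one, with a median of -0.31. The same division ran through the whole transcriptome, where 83.5% of 10307 genes above 50% GC were positive (median 0.60) and 81.2% of 13633 genes at or below were negative (median -0.36). All 7 members whose KO samples lay wholly above WT were above 50% GC, and all 13 that lay wholly below were at or below it. Over all genes, 4474 of the 4931 wholly above were above 50% GC, and 4364 of the 4619 wholly below were at or below it. Begain, with the highest fold, is also the richest in GC at 63.6%, and Ube3a, at 36.9%, is among the poorest. Within the Dlk1-Dio3 cluster Rian is at 35.8% and Begain at 63.6%. Across genes, which are not independent replicates and share the same 6 libraries, Spearman's rho between GC content and log2 difference was 0.69 in the 47 members and 0.74 in 23940 genes, and 0.57 in the members without KO2.

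**Figure D4:**
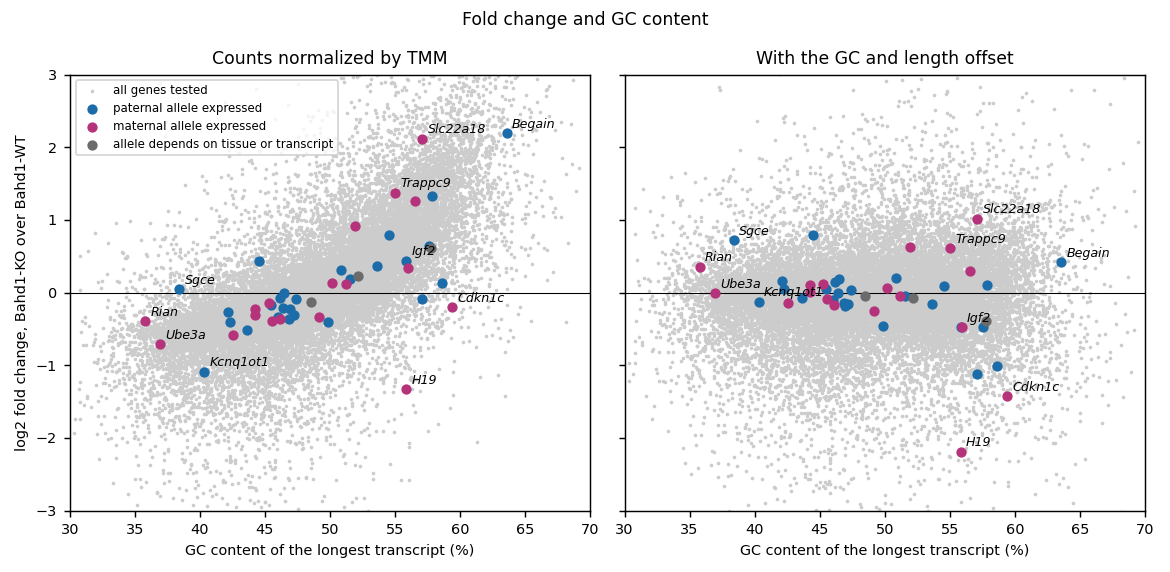
Log2 difference between KO and WT (y axis, cut at -3 and 3) against GC content of the longest transcript (x axis, %, cut at 30 and 70), for all genes tested (grey) and for imprinted genes coloured by the expressed copy, before (left) and after (right) an offset for GC content and length in each library. Igf2r is coloured as maternal although neurons express both copies. Members and grey cloud rise together on the left, whereas on the right rho is 0.06 over all genes and -0.28 over the 47 members.

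The comparison was therefore also made with an offset that takes the smooth trend of counts on GC content and length out of each library. A trend that genotype itself made would be taken out as well, and whether genotype or the libraries gave the trend cannot be told apart here. With the offset 0 of 47 members were DEGs, beside 0.0167% of all genes. At an unadjusted p under 0.05, 8 members (17.0%) were higher, beside 9.9% of all genes, and 5 (10.6%) were lower, beside 11.5%. The log2 difference was smaller in size in 36 of the 47 genes, its median size went from 0.34 to 0.15, and 19 genes took the other sign.

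Ube3a and Kcnq1ot1 went from -0.71 and -1.09 to -0.01 and -0.13, and Peg3, Usp29 and Zim1 to -0.14, -0.08 and -0.15. Begain went from 2.19 to 0.42 (adjusted p = 0.118), Dio3 from 1.33 to 0.10 and Osbpl5 from 1.26 to 0.30. Gnas turned from 0.62 to -0.39 and Igf2 from 0.44 to -0.47 (SE 0.27, adjusted p = 0.345). Slc22a18 was at 1.01 and Trappc9 at 0.61 (adjusted p = 0.164 and 0.0862). KO values lay wholly above WT in this fit too in Slc22a18, Trappc9, Begain, Osbpl5 and Rasgrf1, in Osbpl5 by the narrowest margin, 13.88 CPM beside 13.876.

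Some members differed more once the trend was taken out. Cdkn1c had offset levels of 14.1, 27.8 and 18.2 CPM in WT and 11.6, 4.56 and 6.47 CPM in KO, a log2 difference of -1.42 (SE 0.34, adjusted p = 0.0828). Nnat had 259, 299 and 416 CPM in WT and 236, 113 and 135 CPM in KO, a log2 difference of -1.01 (adjusted p = 0.0902). Sgce, flat in the first fit, had 25.9, 23.6 and 30 CPM in WT and 34.1, 58.8 and 38.1 CPM in KO, a log2 difference of 0.72 (adjusted p = 0.0929). H19 was at -2.19 with overlapping groups (adjusted p = 0.123). Cdkn1c and Nnat are rich in GC (59.4% and 58.6%) and Sgce is poor (38.4%), and none of the 4 passed the threshold. KO lay wholly above WT in 8 members, beside 11.7% of all genes, and wholly below in 4, beside 14.6%. Of the 20 genes apart in the first fit, 7 stayed apart the same way and Rian, lower before, was apart the other way at 0.35. The share of all genes that stayed apart in both fits is not given here, and the 7 cannot be judged against it.

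Levels between genes were compared per length of exon, over the whole annotated length, and in WT they ran from Snrpn down to Peg12 at 0.047 RPKM. After Snrpn came Nnat at 118 ± 30 RPKM, Impact at 83.5 ± 2.9, Peg13 at 83.1 ± 4.6, Meg3 at 77.9 ± 15 and Gnas at 71.6 ± 2.9 (SD, n = 3). Impact, Peg13, Meg3 and Gnas did not differ from their neighbours among these 4 beyond their SDs, and Gnas was followed by Peg3 at 41.7 ± 2.1. At the low end Dio3, Kcnq1ot1, Rtl1 and Slc22a18 stood at 0.234, 0.213, 0.156 and 0.094 RPKM.

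Genes that act with the imprinted clusters were described from named lists. Of 19 other genes of IGF signalling, 3 (15.8%, beside 19.9% of all genes) were higher and 2 (10.5%, beside 12.0%) lower at an unadjusted p under 0.05, and 0 were DEGs by edgeR and 2 (10.5%, beside 10.5%) by DESeq2. The IGF binding protein genes Igfbp6 and Igfbp2 were at 3.08 and 2.17 (adjusted p = 0.0634 for both) and the protease gene Htra1 at 0.55 (adjusted p = 0.115), while the insulin receptor gene Insr was at -0.51 (adjusted p = 0.124) and Igf2bp3 at -3.28 (adjusted p = 0.153), with 73 counts in WT3 beside 0 to 7 in each of the other 5 libraries. Igfbp6 and Igfbp2 are at 60.7% and 62.1% GC. With the offset Igfbp6 was at 1.30, Igfbp2 at 0.48, Htra1 at -0.28, Insr at -0.29 and Igf2bp3 at -2.99.

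Among 25 tested genes of 27 that set, read or guard imprints, 4 (16%, beside 19.9% of all genes) were higher and 7 (28%, beside 12.0%) lower at an unadjusted p under 0.05, and 0 were DEGs by edgeR and 3 (12%, beside 10.5%) by DESeq2. Mbd3, of the NuRD complex, was at 2.98, Ehmt2, the H3K9 methyltransferase G9a, at 1.46 and Trim28, the corepressor KAP1 recruited by ZFP57, at 1.18 (adjusted p = 0.0634, 0.0659 and 0.0634). Zfp445, which guards imprints with ZFP57, was at -0.68, Arid4b at -0.67 and the Polycomb methyltransferase gene Ezh2 at -0.66 (adjusted p = 0.0737, 0.0723 and 0.0899). Dppa3 and Ctcfl did not have the minimum count. With the offset 2 of the 25 were higher, beside 9.9% of all genes, and 2 lower, beside 11.5%, at an unadjusted p under 0.05. In that fit Trim28 and Ehmt2 were at -0.11 and -0.04, Mbd3 at 1.17, Zfp445 at -0.31, Arid4b at -0.10 and Ezh2 at -0.35.

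Of 41 further imprinted genes outside the list, 40 were tested, all but Zim3. At an unadjusted p under 0.05, 8 (20%, beside 19.9% of all genes) were higher and 3 (7.5%, beside 12.0%) lower, and 0 were DEGs by edgeR and 3 (7.5%, beside 10.5%) by DESeq2, with a median of -0.01. Cdh15, a cadherin, was at 1.91, Tssc4 at 1.77 and Cd81, a tetraspanin, at 0.84 (adjusted p = 0.0634 for each), and the transporter gene Slc38a4 was at -0.69 and Pon3 at -0.55 (adjusted p = 0.0913 and 0.125). With the offset Cdh15 was at 0.48, Tssc4 at 0.33, Cd81 at 0.74, Slc38a4 at -0.32 and Pon3 at -0.27.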

How the data were processed

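Polyadenylated RNA of 3 Bahd1-KO and 3 Bahd1-WT hemispheres was sequenced on a HiSeq. The authors deposited raw read counts per gene, whole numbers without normalization, for 53801 genes. The submitters' processing notes list cutadapt 1.11, STAR 2.5.0a, featureCounts 1.4.6-p3 of Subread, R 3.5.1 and DESeq2 1.20.0 with GRCm38, while the methods also name Tophat2. The methods name a stranded kit and the labels one without that word. The table held 0 columns of other samples.

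After a filter at a total of 10 counts a gene, testing used edgeR 4.0.16 in R 4.3.3 (TMM, quasi-likelihood, genotype as the only factor, Benjamini-Hochberg over 23975 genes), and standard errors come from that fit. DESeq2 1.42.0, other scalings and filters, samples left out, a block on replicate number, and an offset for GC content and length were alternatives. The offset was a natural spline per library (5 and 3 degrees of freedom) fitted where mean log2 CPM exceeded 1 (13261 genes), using GENCODE M21. RPKM divides CPM by exon length in kb. Scripts were tested on simulated data. Depth was 42297150 to 93557948 counts, and the floor of 3 counts covers counting error only.

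Samples of a genotype are separate mice per the methods, which litter each came from was not given in the sources used here, and p-values measure the spread between these samples. Members, lists and tests were chosen with earlier results of these data known. Named in full were Igf2, H19, Igf2r, the first tested gene of each cluster and members with an unadjusted p under 0.05 and at least 2-fold, and, of each other list, up to 3 genes a direction by lowest p. One gene that this rule names is not reported here.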

Additional observations from a re-analysis of the deposited data

How the results depend on the processing

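With 3 animals a genotype and 1 comparison, an exact permutation test of a single value cannot go below a two-sided p of 0.1, so calls rest on the spread that edgeR shares across genes. The count of DEGs among the 47 members was 0 with TMM, beside 0.00834% of all genes. It was 6 with DESeq2 with or without the prior (12.8%, beside 10.5% of all genes, with it). A sample left out gave 0 to 7, the 7 without KO1 (14.9%, beside 16.8% of all genes). The count was 6 when genes with a sum of at least 1 count were kept and 5 with total counts. Shares of all genes in the other settings are not given here, so their counts cannot be judged against the transcriptome. The cause was not tested. Igf2 was not a DEG under any alternative, at 0.12 to 0.82 with a sample left out.

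Counts at an unadjusted p under 0.05 with a sample left out were 5 to 12 higher (12 without KO1) and 2 to 8 lower (2 without WT1). Without KO2 they were 5 higher (10.6%, beside 15.5% of all genes) and 5 lower (10.6%, beside 9.35%). Shares of all genes in the other such fits are not given here, so their counts cannot be judged against the transcriptome. With a sample left out the median log2 difference was -0.16 to -0.048 for members, -0.15 to -0.034 for paternal genes and -0.25 to -0.061 for maternal genes. Airn moved between -0.075 and 0.059, Peg12 between -0.43 and 0.26, Nnat between -0.039 and 0.35, Igf2r between -0.017 and 0.30 and Mest between -0.25 and 0.0035.

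Replicate numbers did not pair the animals, since deviations of same-numbered samples correlated at -0.22, -0.24 and -0.02 and other pairs reached 0.23. With the replicate block, 7 members were higher (14.9%, beside 15.1% of all genes) and 2 lower (4.26%, beside 6.68%) at an unadjusted p under 0.05. In that fit 0 were DEGs, beside 7 of the 23975 genes tested, and the median was -0.14.

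Upper-quartile factors moved the median of all genes from -0.06 to -0.20, and those of members, paternal and maternal genes to -0.24, -0.22 and -0.35, with Igf2r at -0.027, Slc22a3 at -0.011, Nnat at -0.012 and Sgce at -0.092. Total counts put the medians of members and paternal genes at -0.017 and -0.0045, Airn at 0.064 and Zrsr1 at 0.0040. Airn was at 0.010 with DESeq2's size factors in edgeR, and in DESeq2 at 0.0096 with the prior and 0.0099 without.

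The GC and length offset put the medians of members, paternal and maternal genes at -0.042, -0.022 and -0.00025, and gave 19 genes the other sign. It put Igf2 at -0.47, Igf2r at -0.048, Airn at 0.19, Rian at 0.35, Dlk1 at -0.16, Snrpn at 0.043, Magel2 at -0.48, Gnas at -0.39, Nnat at -1.01, Blcap at -0.073, H13 at -0.47, Mest at 0.030, Copg2 at 0.0065, Asb4 at 0.11, Peg13 at -0.042, Commd1 at 0.12, Zrsr1 at 0.15, Zdbf2 at 0.054 and Impact at 0.15. With the replicate block added, the medians were -0.045, -0.023 and -0.00028, and the same genes, in this order, stood at -0.53, -0.055, 0.19, 0.35, -0.15, 0.043, -0.46, -0.42, -1.06, -0.074, -0.49, 0.028, 0.0081, 0.10, -0.045, 0.11, 0.14, 0.054 and 0.15.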
